A study of Mus musculus with 20 samples.

Results

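The genes that govern how many mitochondria a heart cell builds were followed in whole hearts of mice with iron-deficiency anemia (IDA). They are the coactivators *Ppargc1a* and *Ppargc1b*, the receptors *Esrra* and *Esrrg*, the nuclear respiratory factors *Nrf1* and *Gabpa*, and *Tfam*, *Tfb1m*, *Tfb2m* and *Polg*, whose products act on mitochondrial DNA and RNA. These 10 genes were chosen by name among the 23420 genes of the deposited count table, and all 10 were among the 13590 genes expressed highly enough to be tested. Hearts came from wild-type male C57BL/6 mice aged 9 weeks, 10 on a control diet and 10 on an iron-deficient diet, each fed for 6 weeks from the age of 3 weeks. The study left out a sample of each group because of contamination. Its text does not name them, so all 20 mice were kept here, those samples included.

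PGC-1α and PGC-1β, the products of *Ppargc1a* and *Ppargc1b*, are coactivators: they bind no DNA themselves and raise transcription through the factors they join. Among these factors are the estrogen-related receptors ERRα and ERRγ, which in the heart drive genes of fatty acid oxidation and respiration, and the nuclear respiratory factors NRF1 and GABP, of which *Gabpa* encodes the DNA-binding subunit. The respiratory factors in turn act on nuclear genes for the machinery of mitochondrial DNA: TFAM packs that DNA and opens its promoters, TFB2M starts transcription, TFB1M methylates the small ribosomal RNA, and POLG is the catalytic subunit of the mitochondrial DNA polymerase.

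Sites of this kind can be read in the promoters of some of the genes. The 4 short stretches given here are shown because they hold the letters of a respiratory factor site in capitals. They were taken from RefSeq promoters (GRCm38.p6, 250 bases before to 50 after the start), each written on the strand of the gene, which is the minus strand in all 4 cases.
Tfam, chr10:71238058-71238116, GABP letters: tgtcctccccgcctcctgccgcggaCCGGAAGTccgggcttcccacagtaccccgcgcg
Polg, chr7:79466278-79466336, GABP letters: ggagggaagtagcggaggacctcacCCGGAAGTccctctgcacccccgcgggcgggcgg
Esrra, chr19:6921915-6921974, NRF-1 letters: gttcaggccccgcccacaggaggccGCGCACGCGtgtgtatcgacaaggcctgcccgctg
Tfb2m, chr1:179546245-179546274, NRF-1 letters: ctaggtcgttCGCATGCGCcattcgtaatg

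The first 3 stretches lie upstream of the start, with the capitals beginning 47 bases before it in *Tfam*, 38 in *Polg* and 141 in *Esrra*. In *Tfb2m* they begin at base 13 of the transcript and read in the reverse direction. Promoters were given for 9 of the 10 genes, 13 promoters in all, and both strands were searched. The GABP letters CCGGAAGT were found in 2 of these 13 promoters and in 3.89% of all 32851 promoters, and the NRF-1 core GCGCANGCG in 2 of 13 and in 6.25% of all. The ERR element TNAAGGTCA and the CRE TGACGTCA were in 0 of 13, against 1.28% and 1.79% of all promoters. No 2 of these motifs overlapped in the regulators' promoters. A match describes letters only.

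Expression was measured by RNA-seq, and each value rests on the read pairs counted over a gene's exons. Totals lay between 6797180 and 8960688 read pairs per mouse in the control group and between 6682177 and 7833916 in the IDA group. Levels are given as CPM, the counts scaled to library size with TMM factors, and fold changes are log2 values of IDA against control from edgeR's quasi-likelihood test, called at a Benjamini-Hochberg adjusted p below 0.05 over all tested genes. Fold changes in these hearts followed gene length. When the tested genes were ranked by exonic length and divided into 10 classes of nearly equal size, the median log2 fold change was 0.34 in the class of the shortest genes and -0.53 in that of the longest. A slope on log2 exonic length was fitted in each mouse to how far its log2 CPM lay from each gene's mean over all mice. Its sign is thus relative to the average of all mice, and does not give how expression itself runs with length. The slope was between 0.020 and 0.199 in control mice and between -0.254 and -0.025 in IDA mice. The groups did not overlap in it. The fold change of each regulator is therefore given also after removing this trend from each mouse, called the gene length correction, and after removing length and GC content together. What gave rise to the length trend cannot be told apart from diet in this design. The library numbers in the column names fell into 2 unbroken runs, a lower and a higher one, each with mice of both groups. The lower run held control mice 6 to 10 and IDA mice 4 to 10. The higher run held control mice 1 to 5 and only IDA mice 1 to 3. In a test of whether the effect of diet differed between the runs, 0 of the 10 regulators passed, and 0 had an unadjusted p below 0.05 (edgeR only). Of all tested genes 0.206% passed it, so that 0 of 10 is near the background.

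Of the 10 regulators, 6 were called, 1 higher and 5 lower in IDA. Among all tested genes, 67.5% were called, 35.0% higher and 32.5% lower, so that the number of regulators called was near the background. *Esrrg* fell most, to about 50.1% of its control mean, followed by *Gabpa*, *Ppargc1b*, *Ppargc1a* and *Tfb2m*, while *Esrra* rose. *Nrf1*, *Tfam*, *Tfb1m* and *Polg* did not pass the test. The rule of p below 0.01 in both edgeR and DESeq2, which called 59.8% of all genes, called 5 of the 10, without *Ppargc1a*. After the gene length correction, 9 were called, 4 higher and 5 lower, against a background of 55.0% called, 31.5% higher and 23.5% lower. The median log2 fold change of the 10 genes was -0.09 without the correction and -0.08 with it, beside 0.02 and 0.04 over all tested genes. Only *Esrrg* and *Ppargc1b* were lower with a call in all 3 fits, that is without correction, with the length correction, and with the correction for length and GC content, under which 4 of the 10 and 47.1% of all genes were called.

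**Figure D1:**
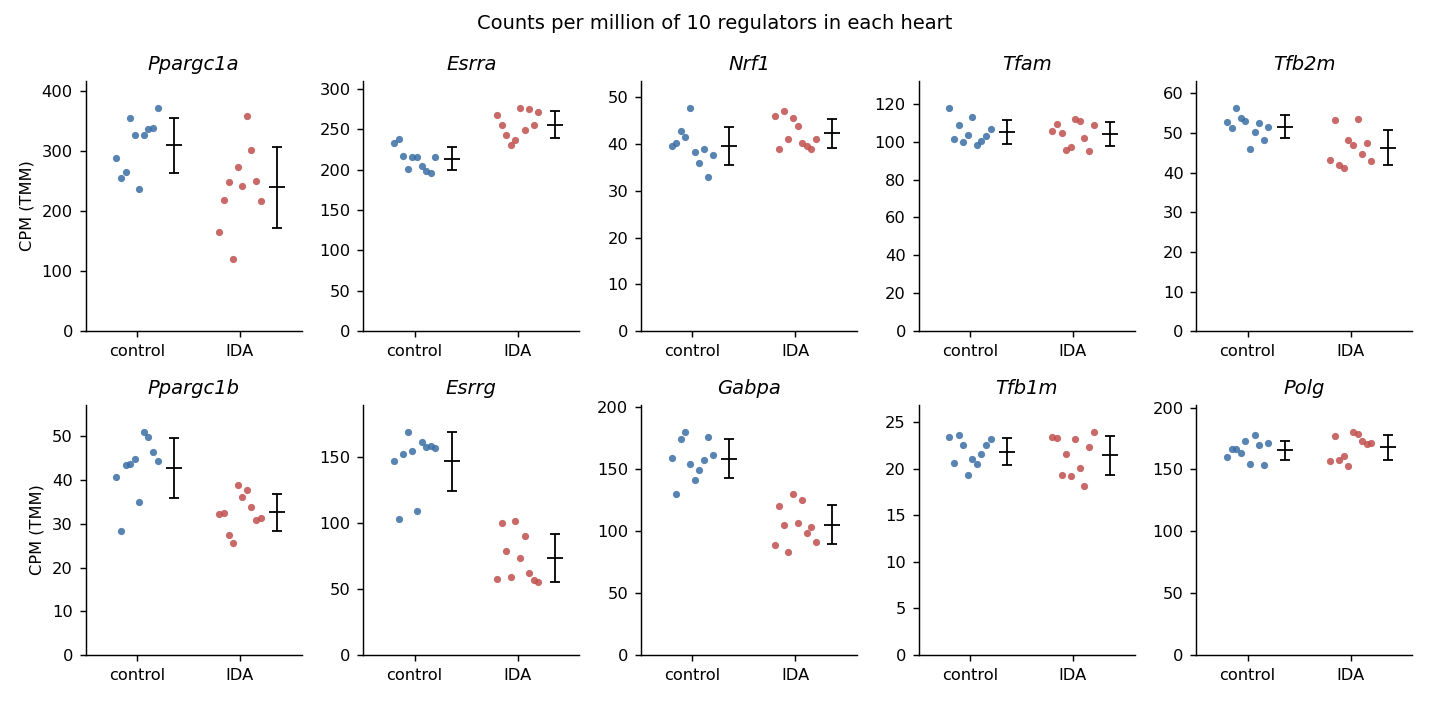
CPM (TMM scaled) of the 10 regulators, with 1 point per heart and the mean ± SD of each group (n = 10) beside the points. *Esrrg* and *Gabpa* are lower in every IDA heart than in any control heart, *Esrra* is mostly higher, and the groups lie on top of each other for *Tfam*, *Tfb1m* and *Polg*.

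**Figure D2:**
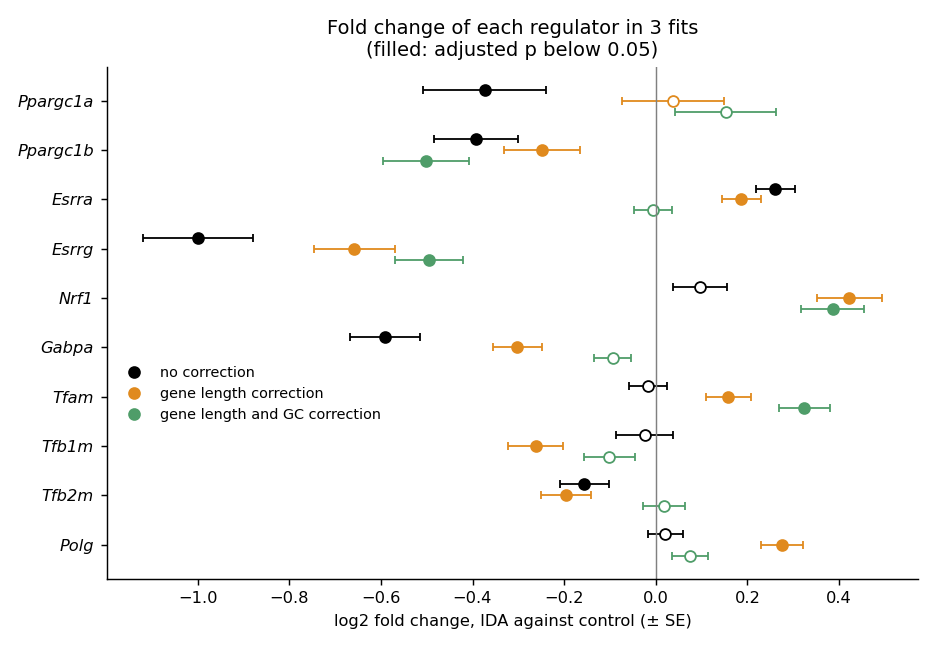
Log2 fold change of IDA against control (± SE) for each regulator without correction, with the gene length correction, and with the correction for length and GC content. Filled points passed an adjusted p of 0.05. *Esrrg* and *Ppargc1b* stay below 0 and filled in the 3 fits, whereas *Ppargc1a* moves from -0.37 to 0.15.

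*Ppargc1a* lies on chromosome 5 of mm10, from 51454249 to 51553921, with 13 exons and 6495 bp of exonic length in the table, the longest of the 10 genes. It had 236.8 CPM in the lowest control heart, a median of 327 and 372 in the highest. In IDA hearts the lowest value was 121 CPM, the median 245 and the highest 359. Both groups spread widely and overlapped, with 9 of 10 IDA hearts below the control mean and 4 below the lowest control heart. The mean fell from 309.8 ± 45.8 to 239.4 ± 66.8 CPM (SD, n = 10 each), which is -0.37 on the log2 scale (SE 0.13, adjusted p = 0.0178). This call did not survive the gene length correction, which gave 0.04 (SE 0.11, adjusted p = 0.80), nor the correction for length and GC content (0.15, adjusted p = 0.26). Within the lower run of library numbers it was -0.36 (adjusted p = 0.12), and within the higher run -0.51 (adjusted p = 0.0146). When 1 control and 1 IDA mouse were left out at a time, 93 of 100 fits kept the call. The 7 that lost it left out IDA mouse 1, 2 or 10 together with control mouse 4, 5, 9 or 10, with adjusted p-values up to 0.0646.

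*Ppargc1b*, on chromosome 18 from 61298136 to 61400431, has 12 exons and 3656 bp. Its control values ran from 28.4 CPM to 51.1 with a median of 44.1. The IDA values ran from 25.6 to 39.0 with a median of 32.3. Every IDA heart was below the control mean, although 8 of them lay within the control range. The fall was -0.39 (SE 0.09, adjusted p = 0.000644), and was -0.25 (adjusted p = 0.0141) with the length correction and -0.50 (adjusted p = 0.000154) with length and GC content. Within a heart, the log2 ratio of *Ppargc1a* to *Ppargc1b* counts was 2.86 ± 0.18 in control and 2.82 ± 0.34 in IDA hearts (SD, n = 10 each), a difference of -0.03 ± 0.12 (SE, two-sided permutation test, adjusted p = 0.79 over 7 ratios).

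The estrogen-related receptors moved in opposite directions. *Esrrg*, on chromosome 1 from 187609006 to 188214884, has 9 exons and 5580 bp. It had 103 CPM in the lowest control heart, a median of 155 and 169 in the highest. In the IDA hearts the lowest value was 55.3, the median 68.0 and the highest 101. All 10 IDA hearts were below the lowest control heart, a separation found in either direction for 11.3% of all tested genes. The log2 fold change was -0.998 (SE 0.12, adjusted p = 4.98e-07). It was -0.66 with the length correction (SE 0.09, adjusted p = 3.31e-06), where the ranges overlapped, with 100 CPM in the lowest control and 108 in the highest IDA heart, and -0.50 with length and GC content (adjusted p = 1.2e-05). It was called in both library number runs, at -1.06 and -0.90.

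*Esrra*, on chromosome 19 from 6910977 to 6921808, has 7 exons and 2242 bp, and shares 50 exonic bases with *Trmt112*. Control hearts held 196 to 237.7 CPM with a median of 216, and IDA hearts 229.9 to 276 with a median of 254.7. Every IDA heart was above the control mean and 8 were above the highest control heart. The rise was 0.26 (SE 0.04, adjusted p = 1.4e-05) and 0.19 with the length correction (adjusted p = 0.000708). With length and GC content corrected it was -0.01 (SE 0.04, adjusted p = 0.91), so the rise of *Esrra* was lost there. The third member of the family, *Esrrb*, did not pass (log2 fold change -0.01, adjusted p = 0.90).

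Within a heart, *Esrra* had a median of 1.39 read pairs for each *Esrrg* pair in control hearts, with a range from 1.19 to 2.32. In IDA hearts the median was 3.82 and the range 2.34 to 4.90. The groups did not overlap. The log2 ratio rose by 1.28 (SE 0.16, two-sided permutation test, p = 4e-05, adjusted p = 0.00014 over 7 ratios), in 10 of 10 IDA hearts. With both counts corrected for length the rise was 0.86 (adjusted p = 0.00014), and the ranges then overlapped.

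**Figure D3:**
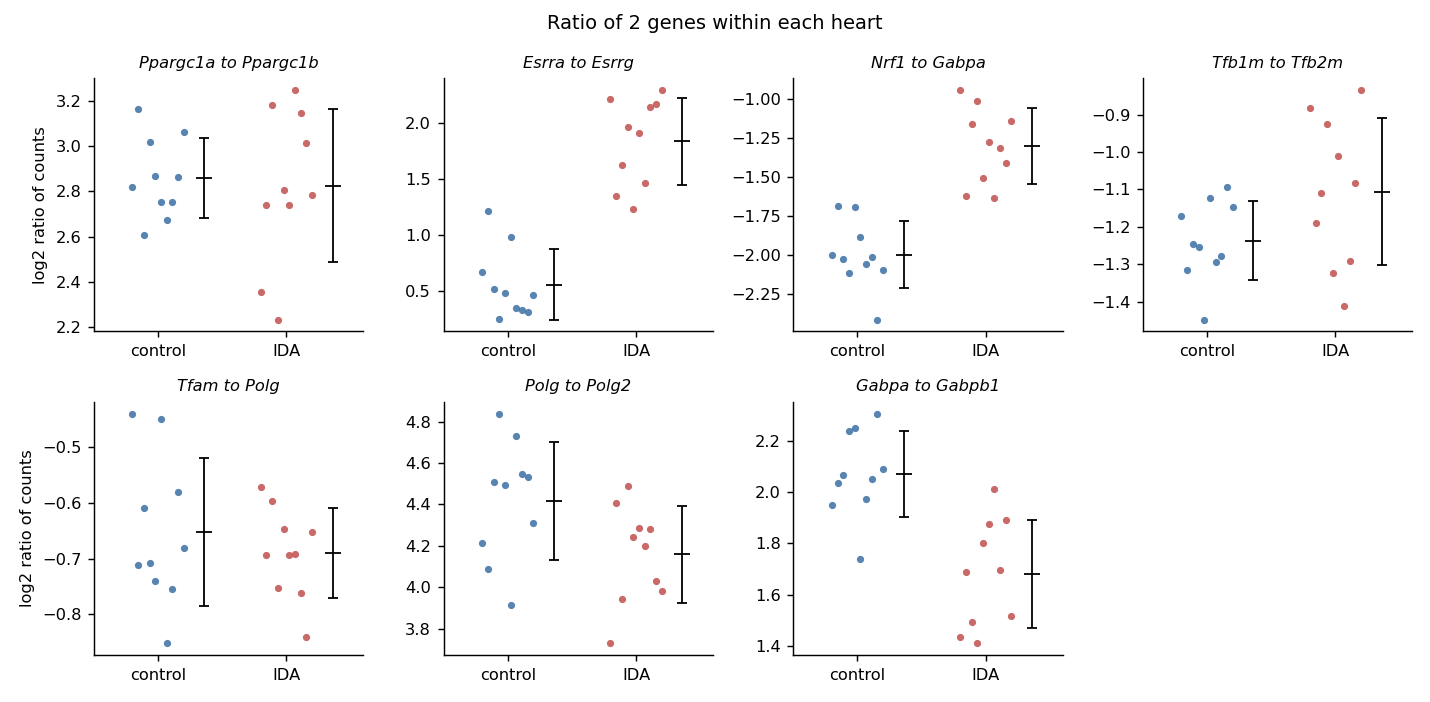
Log2 ratio of the read pair counts of 2 genes within each heart, 1 point per heart, with the mean ± SD of each group (n = 10). The IDA hearts lie above all control hearts for *Esrra* to *Esrrg* and for *Nrf1* to *Gabpa*, and mostly below them for *Gabpa* to *Gabpb1*.

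The respiratory factors also parted. *Gabpa*, on chromosome 16 from 84835124 to 84863778, has 10 exons and 4986 bp. The lowest control heart had 129.9 CPM, the median was 158 and the highest 180. The lowest IDA heart had 82.9 CPM, the median was 104 and the highest 129.5. The groups did not overlap, but only just, and 11.3% of all tested genes were separated in either direction. The log2 fold change of -0.59 (SE 0.08, adjusted p = 9.04e-07) was -0.30 with the length correction (SE 0.05, adjusted p = 5.2e-05). The ranges then overlapped, with 128 CPM in the lowest control and 130 in the highest IDA heart. With length and GC content the fold change was -0.09 (SE 0.04, adjusted p = 0.0572), which no longer passed. *Gabpa* shares 123 exonic bases with *Atp5j*, and the counting took no account of strand.

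*Nrf1*, on chromosome 6 from 30047988 to 30153458, has 16 exons and 5342 bp and was the least abundant regulator per length. It had 32.9 CPM in the lowest control heart, a median of 39.3 and 47.7 in the highest, against 38.8, 41.1 and 47.1 in IDA hearts. All IDA hearts were inside the control range. The log2 fold change was 0.10 (SE 0.06, adjusted p = 0.15), with an approximate 95% interval from -0.02 to 0.21. The median log2 fold change of its length class was -0.32, and after the length correction *Nrf1* was higher by 0.42 (SE 0.07, adjusted p = 3.46e-05), with 10 of 10 IDA hearts above the control mean. With length and GC content it was higher by 0.39 (adjusted p = 8.66e-05).

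The log2 ratio of *Nrf1* to *Gabpa* counts depends little on length, since their exons are of similar size. It was -1.997 ± 0.21 in control and -1.30 ± 0.24 in IDA hearts (SD, n = 10 each) and did not overlap between the groups. The difference of 0.70 (SE 0.10, two-sided permutation test, adjusted p = 0.00014) was 0.73 with the length correction (adjusted p = 0.00014), where the groups again did not overlap. GABP works as a complex of GABPA with a GABPB subunit. The ratio of *Gabpa* to *Gabpb1* fell by 0.39 on the log2 scale (SE 0.08, two-sided permutation test, adjusted p = 0.000933), and by 0.45 with the length correction (adjusted p = 0.000607). Without correction 10 of 10 IDA hearts were below the control mean, but the groups overlapped (lowest control heart 1.74, highest IDA heart 2.01). They also overlapped with the length correction.

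*Tfam*, on chromosome 10 from 71225477 to 71238044, has 7 exons and 3918 bp. Control hearts held 98.3 to 118 CPM with a median of 103, and IDA hearts 95.3 to 112 with a median of 105. The groups covered each other, with 5 IDA hearts on either side of the control mean. The log2 fold change was -0.02 (SE 0.04, adjusted p = 0.73, approximate 95% interval -0.10 to 0.06). *Tfam* was higher by 0.16 with the length correction (SE 0.05, adjusted p = 0.00897) and by 0.32 with length and GC content (SE 0.06, adjusted p = 4.95e-05).

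*Tfb2m*, on chromosome 1 from 179528056 to 179546267, has 8 exons and 2448 bp. It ran from 46.0 to 56.4 CPM in control hearts with a median of 52.0, and from 41.1 to 53.6 in IDA hearts with a median of 45.8. Of the IDA hearts, 5 of 10 were below the lowest control heart. The fall of -0.16 (SE 0.05, adjusted p = 0.0125) was -0.20 with the length correction (adjusted p = 0.00418) and 0.02 with length and GC content (adjusted p = 0.79). It passed in neither library number run alone without correction, with -0.10 (adjusted p = 0.22) in the lower and -0.23 (adjusted p = 0.0647) in the higher run.

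*Tfb1m*, on chromosome 17 from 3519256 to 3557713, has 7 exons and only 1334 bp, and shares 142 exonic bases with *Tiam2*. Its counts were the lowest of the 10 genes, 124 to 192 read pairs per heart. Control hearts had 19.4 to 23.7 CPM with a median of 22.1, and IDA hearts 18.2 to 24.0 with a median of 22.0. No difference passed (-0.02, SE 0.06, adjusted p = 0.74, approximate 95% interval -0.15 to 0.10). The median log2 fold change of its length class was 0.27, and with the length correction *Tfb1m* was lower in IDA (-0.26, SE 0.06, adjusted p = 0.000743), with 10 of 10 IDA hearts below the control mean. With length and GC content it was -0.10 (adjusted p = 0.14). The ratio of *Tfb1m* to *Tfb2m* differed by 0.13 (SE 0.07, two-sided permutation test, adjusted p = 0.11), which did not pass. It turned to -0.06 with the length correction (adjusted p = 0.32), and passed with the replicate number as a block (0.13, exact permutation test, adjusted p = 0.041).

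*Polg*, on chromosome 7 from 79449383 to 79466273, has 23 exons and 4596 bp, of which 398 bases are shared with *Fanci*. It was the steadiest of the genes in control hearts, with 154 to 178 CPM and a median of 166, a coefficient of variation of 4.73%. IDA hearts had 152 to 181 CPM with a median of 171. Its log2 fold change was 0.02 (SE 0.04, adjusted p = 0.65, approximate 95% interval -0.05 to 0.09). It was higher by 0.28 with the length correction (SE 0.05, adjusted p = 2.77e-05) and by 0.08, without a call, with length and GC content (adjusted p = 0.12). The ratio of *Polg* to *Polg2*, which encodes the accessory subunit of the polymerase, differed by -0.26 (SE 0.12, two-sided permutation test, adjusted p = 0.0679). The ratio of *Tfam* to *Polg* differed by -0.04 (SE 0.05, adjusted p = 0.54). Neither passed. With the length correction the first turned to 0.19 (adjusted p = 0.0661), and the second, at -0.12, passed (adjusted p = 0.0434).

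**Figure D4:**
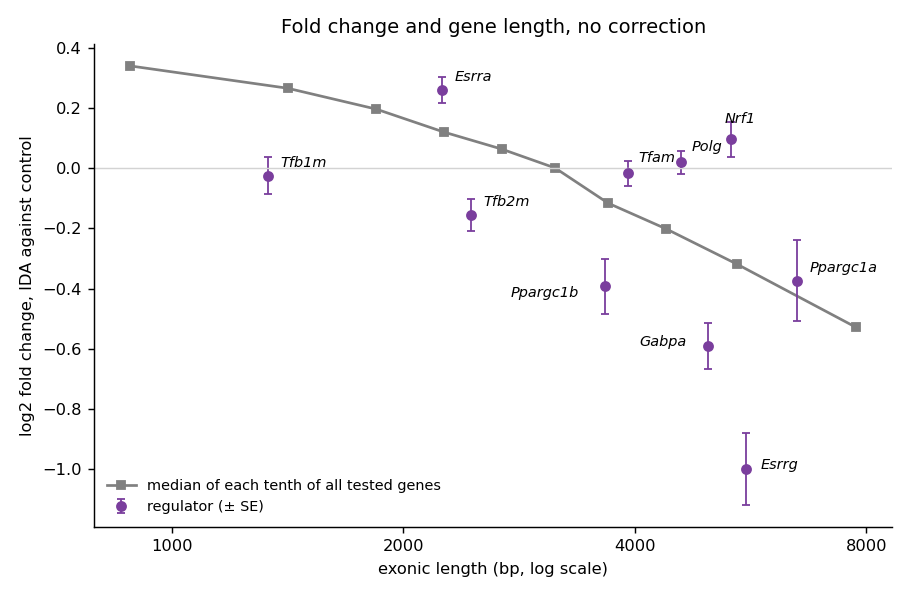
Log2 fold change without correction (± SE) of the 10 regulators against exonic length in bp on a log axis, with the median fold change of each of 10 length classes of the 13590 tested genes as a grey line. *Ppargc1a* lies near the line for genes of its length. *Esrrg*, *Gabpa*, *Ppargc1b*, *Tfb1m* and *Tfb2m* lie below it, and *Nrf1*, *Polg*, *Tfam* and *Esrra* lie above it.

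Levels of different genes were compared per length, as RPKM from the deposited exonic lengths. In control hearts *Esrra* was the most abundant at 95.2 ± 6.27 RPKM (SD, n = 10), and its range stayed clear of *Ppargc1a*, the next at 47.7 ± 7.05. *Polg* (36.0 RPKM), *Gabpa* (31.7), *Tfam* (26.9), *Esrrg* (26.3) and *Tfb2m* (21.1) followed. From *Ppargc1a* down to *Tfb2m* the ranges of neighbours overlapped, so that the order of neighbours was not resolved. Some genes farther apart were separate, such as *Polg* (33.5 RPKM in the lowest control heart) and *Tfam* (30.1 in the highest). *Tfb1m* at 16.4 RPKM was clear of its neighbours on both sides, *Tfb2m* above and *Ppargc1b* (11.7) below. *Nrf1* had the lowest level, 7.41 ± 0.75 RPKM, and overlapped with *Ppargc1b*. By the median in place of the mean, *Esrrg* stood above *Tfam*. In IDA hearts *Esrra* led at 114 ± 7.31 RPKM and *Nrf1* was again the lowest at 7.91 ± 0.58, while *Esrrg* had 13.2 ± 3.26 and *Tfb1m* 16.1 ± 1.57, with ranges that overlapped. Expression varied most among IDA hearts for *Ppargc1a*, with a coefficient of variation of 27.9% against 14.8% in control hearts, and for *Esrrg*, with 24.8% against 15.2%.

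The slope on gene length also differed between mice of the same group, and its relation to the regulators was computed within each group (20 relations, Pearson's r and Spearman's rho with permutation p-values from 100000 resamples, Benjamini-Hochberg adjusted). *Esrrg* was higher in hearts with a more positive slope, with r = 0.89 (p = 4e-05, adjusted p = 0.0008; rho = 0.95, adjusted p = 0.0024) in control and r = 0.82 (p = 0.00408, adjusted p = 0.0163; rho = 0.76, adjusted p = 0.0571) in IDA hearts (permutation test, n = 10 each), and r was 0.87 and 0.86 without the 2 mice farthest from the median slope. For *Gabpa*, r was 0.76 (permutation p = 0.0132, adjusted p = 0.0377; rho = 0.73, adjusted p = 0.0601) in control and 0.88 (p = 0.001, adjusted p = 0.0073; rho = 0.92, adjusted p = 0.006) in IDA hearts, and without those 2 mice 0.37 and 0.89, so that the relation in control hearts rests on them. For *Ppargc1a*, r was 0.82 (permutation p = 0.0113, adjusted p = 0.0375; rho = 0.79, adjusted p = 0.0453) in control and 0.67 (p = 0.0367, adjusted p = 0.0917; rho = 0.75, adjusted p = 0.0571) in IDA hearts, and 0.57 and 0.43 without the 2 mice. *Ppargc1b* had r = 0.86 (permutation p = 0.00128, adjusted p = 0.0073; rho = 0.72, adjusted p = 0.0601) in control and 0.44 (adjusted p = 0.31; rho = 0.49, adjusted p = 0.26) in IDA hearts, and 0.62 and 0.44 without the 2 mice. *Esrra* ran the other way, with r = -0.87 (permutation p = 0.00146, adjusted p = 0.0073; rho = -0.88, adjusted p = 0.0113) in control and -0.47 (adjusted p = 0.28; rho = -0.36, adjusted p = 0.48) in IDA hearts, and -0.96 and -0.43 without them. *Nrf1* and *Polg*, which are about as long as *Esrrg* and *Gabpa*, had r = -0.20 and 0.28 in control and -0.08 and 0.10 in IDA hearts (permutation tests, adjusted p = 0.70 and 0.60 in control and 0.86 for both in IDA hearts), and no relation of *Tfam*, *Tfb1m* or *Tfb2m* passed. Among the 7 IDA hearts of the lower run of library numbers, the only run with at least 6 mice of a group, r was 0.90 for *Esrrg*, 0.93 for *Gabpa* and 0.63 for *Ppargc1a* (exact permutation tests, p = 0.0361, 0.00278 and 0.046). There it was 0.74 for *Ppargc1b*, 0.84 for *Tfb2m* and -0.40 for *Esrra* (exact permutation tests, p = 0.0179, 0.000397 and 0.38). The slope was fitted over all tested genes, the regulators among them. By construction, long genes therefore tend to be higher in hearts with a more positive slope. The p-values do not show a relation particular to a regulator, and r was not computed for other genes of like length. The part of this slope in the falls of these genes was not tested beyond the corrections given above.

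Hearts hold many cell types, and in whole tissue fewer cells of a type and less RNA per cell cannot be told apart. Of 8 cardiomyocyte markers all were tested, with a summed level of 4413 to 5300 CPM in control and 3875 to 5440 in IDA hearts. Of these, 3 were called higher and 1 lower, and 2 higher and 5 lower with the length correction. The table held 9 of the 13 erythroid markers, and 5 could be tested. IDA hearts had more of 4 of them and less of 1; their sum over the table was 110 to 171 CPM in control and 166 to 650 in IDA hearts, and *Hba-a1* and *Hba-a2* were at 0 in every mouse. Of the 5 brown fat markers 3 were tested, with 1 higher and 1 lower and sums of 62.6 to 79.8 and 78.9 to 128 CPM, whereas 0 of the 4 tested white fat markers were called in edgeR or DESeq2, or had an unadjusted p below 0.05. With the mean level of the erythroid markers as a covariate, *Ppargc1a* was at -0.36 (adjusted p = 0.16), and with library size as a covariate -0.33 (adjusted p = 0.11). The other 5 called regulators kept their calls with either covariate. The mean log2 CPM of the erythroid markers was 2.11 to 3.18 in control and 3.35 to 6.47 in IDA hearts. The groups did not overlap in it, so a fit with this covariate cannot separate it from diet. The estimate for *Ppargc1a* moved little from the -0.37 without a covariate. Without correction, 2 of 6 endothelial markers were higher and 3 lower, 3 of 6 macrophage and leukocyte markers higher and 1 lower, 2 of 5 smooth muscle markers higher and 1 lower, 1 of 6 fibroblast markers higher and 1 lower, and 2 of 3 tested skeletal muscle markers higher. With the length correction these lists had 2 and 0, 2 and 0, 2 and 0, 2 and 2, and 0 and 0 genes higher and lower. The 5 lung markers were too low to be tested. The part of these cell types in the regulators' changes was not tested.

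The genes around the regulators were described from 7 lists of 174 entries, which overlap in part, and which are to be read against all tested genes, of which 35.0% were higher and 32.5% lower with a median of 0.02 without correction, and 31.5% higher and 23.5% lower with a median of 0.04 with the length correction. Of the genes that regulate or partner PGC-1, 29 were tested. Without correction 22 were lower and 4 higher, with a median log2 fold change of -0.53, and with the length correction 17 were lower and 4 higher, with a median of -0.22. The correction for length and GC content left 13 lower and 5 higher, with a median of -0.06. The largest falls were of *Nrip1*, a corepressor that opposes PGC-1 and ERR, from 27.7 ± 9.52 to 7.14 ± 2.87 CPM (log2 fold change -1.97, SE 0.23), and of *Mef2a*, a muscle transcription factor that acts on *Ppargc1a*, from 162 ± 33.8 to 57.3 ± 23.1 CPM (-1.50, SE 0.19). Both were close to this after the length correction (-1.72 and -1.47), and without correction both were below the control mean in 10 of 10 IDA hearts. The largest rises were of the methyltransferase gene *Prmt1* (0.29) and the acetyltransferase gene *Kat2a* (0.23), which stayed called with the length correction at 0.09 and 0.29 but not with length and GC content (0.0059 and 0.08). Among 16 partner nuclear receptors and respiratory factor cofactors, 7 were lower and 2 higher, 6 and 5 with the length correction, and 6 and 2 with length and GC content. *Hcfc1*, a chromatin cofactor, fell by 0.83 on the log2 scale and *Thrb*, a thyroid hormone receptor, by 0.79, while the retinoid X receptors *Rxrb* and *Rxrg* rose by 0.39 and 0.26. All 4 were called in the same direction with the length correction, and with length and GC content all but *Rxrg* (0.11, adjusted p = 0.0673).

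Of 28 tested genes of mitochondrial RNA synthesis and processing, 14 were higher and 5 lower (median 0.09), with the length correction 10 and 7 (median 0.01), and with length and GC content 12 and 6 (median 0.10). *Ptcd2*, needed for processing of mitochondrial RNA, rose by 0.37 and *Slirp*, a partner in RNA stability, by 0.36, of which only the first stayed called with the length correction (0.19 against -0.02). *Pnpt1*, which encodes an RNA-degrading enzyme, fell by 0.41 and *Angel2* by 0.32. With the length correction these were still called lower (-0.40 and -0.22), and with length and GC content only *Pnpt1* was (-0.14, against -0.07 for *Angel2*). Of 23 genes of mitochondrial DNA replication and nucleotide supply, 14 were higher and 6 lower (median 0.18), with the length correction 7 and 4 (median 0.08), and with length and GC content 6 and 3 (median 0.06). In this list the nuclease gene *Endog* rose by 0.55 and the thymidine kinase gene *Tk2* by 0.37. The ribonucleotide reductase gene *Rrm2b* fell by 0.90 and the nucleotide carrier gene *Slc25a36* by 0.86, and these 4 were called in the same direction with the length correction, and with length and GC content all but *Endog* (0.02, adjusted p = 0.82).

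The 27 textbook target genes of PGC-1, ERR and NRF included 13 called higher and 0 called lower by edgeR. By unadjusted p below 0.05 the counts were 16 higher and 0 lower, and in DESeq2 14 and 0. *Surf1*, a cytochrome oxidase assembly gene, rose by 0.29 and *Cox17*, a copper chaperone of the same enzyme, by 0.25. With the length correction 5 were higher and 8 lower, with a median of -0.02 in place of 0.12. *Surf1* was then not called (0.03, adjusted p = 0.63) and *Cox17* was lower at -0.13 (adjusted p = 0.0163). After removing length and GC content 5 were higher and 6 lower, with a median of 0.0046, and neither *Surf1* nor *Cox17* was called. Of 33 mitochondrial import genes, 26 were higher and 2 lower (median 0.29), 15 and 5 with the length correction (median 0.11), and 13 and 3 with length and GC content (median 0.09). *Timm13* and *Timm9*, small chaperones of the intermembrane space, rose by 0.46 and 0.43 and stayed called at 0.20 and 0.16 (with length and GC content only *Timm9*, at 0.27, against 0.02 for *Timm13*), whereas the falls of *Tomm70a* and *Pmpca*, both -0.10, were not called after it, and *Tomm70a* was called higher (0.35) with length and GC content. Of 13 tested fusion and fission genes, 4 were higher and 5 lower (median 0.05), 3 and 3 with the length correction (median 0.04), and 7 and 1 with length and GC content (median 0.13). *Msto1* and *Fis1* rose by 0.42 and 0.31, the fission gene *Dnm1l* fell by 0.44 and the fusion gene *Opa1* by 0.41. With the correction *Msto1* (0.27) and *Dnm1l* (-0.23) remained called, and *Fis1* (0.04) and *Opa1* (-0.04) did not. *Dnm1l* was not called with length and GC content (0.01, adjusted p = 0.78).

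**Figure D5:**
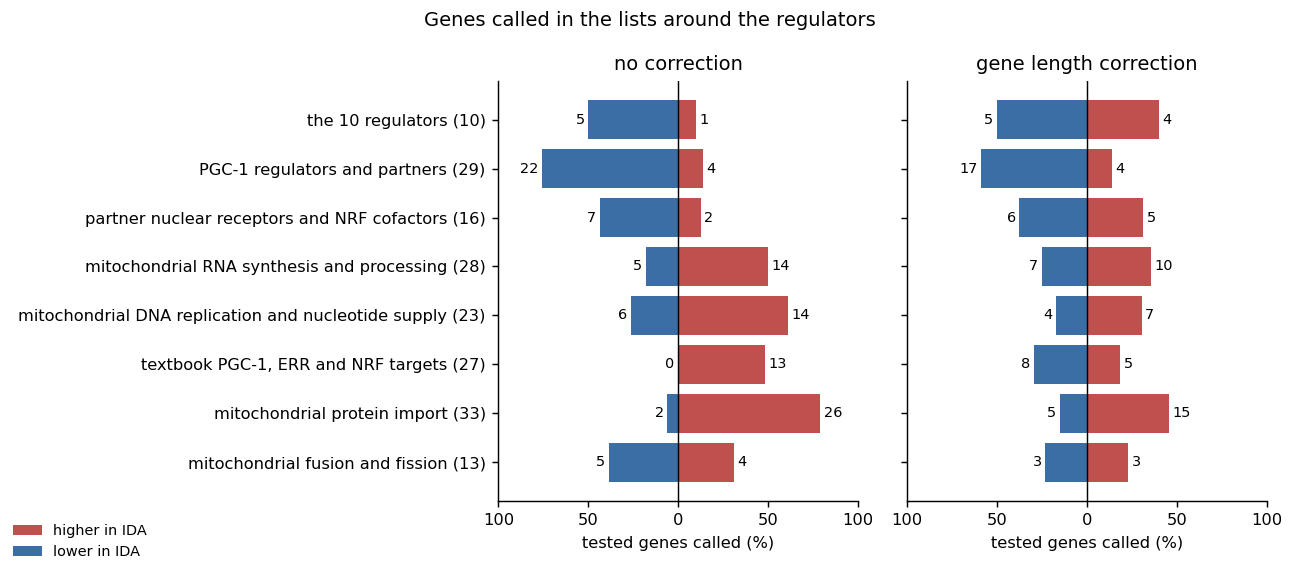
Share of tested genes called higher or lower in IDA (%) in the 10 regulators and 7 related lists, with the number of genes called at each bar and the number tested in parentheses, without correction and with the gene length correction. The PGC-1 regulators are mostly lower in both panels, and the targets pass from 13 higher and 0 lower to 5 higher and 8 lower.

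The genes whose level varied most like *Ppargc1a* from heart to heart were sought among 13589 others, as Pearson's r of length-corrected log2 CPM after subtracting the mean of each group, over the 20 hearts. The highest values were those of *Farp2* (r = 0.89, rho = 0.80), *Ppara* (r = 0.88, rho = 0.69) and *Cpn2* (r = 0.88, rho = 0.89). Without the 2 hearts farthest from the median of *Ppargc1a* they were 0.75, 0.63 and 0.81. They are the top of a ranking, so that no p is given. *Cpn2* is also in the list of brown fat markers above and was the one called lower there. The part of brown fat in the variation of *Ppargc1a* was not tested. Among the regulators, *Ppargc1b* ranked 1542 with r = 0.51, *Gabpa* 1614 with r = 0.50, *Tfb2m* 1966 with r = 0.47, *Esrra* 2884 with r = 0.38 and *Esrrg* 4176 with r = 0.28. Without the 2 hearts these fell to 0.31, 0.05, 0.06, 0.09 and 0.07, so that all but that of *Ppargc1b* rest on those hearts. *Nrf1* had r = -0.29, and -0.28 without them. The group differences of the first 3 genes were -0.19, -0.59 and -1.05 without correction, and -0.02, -0.11 and -0.79 with the length correction.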

How the data were processed

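RNA-seq counts of whole hearts from 10 control and 10 IDA mice were analysed, grouped by their labels. Alignment to mm10 was done by the authors with STAR. After removal of duplicates, exonic read pairs were counted without strand in featureCounts 1.4.5-p1, and the authors deposited the raw counts for 23420 genes with exonic lengths. The labels disagree on whether the iron-deficient diet held less or more than 2 ppm iron. Removing duplicates can compress abundant genes. The regulators reached at most 0.90 read pairs per exonic base. Of the genes named as the largest rises and falls of a list, *Cox17* was highest at 1.04. The value was not computed for the other listed genes, which include all targets but *Surf1* and *Cox17*, nor for the cell type markers. Some of these may lie higher, and compression of their levels was not tested.

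Genes were kept if 10 or more mice had 1 CPM or more (13590 kept and 9830 excluded). Counts were TMM normalized and tested in R 4.3.3 with edgeR 4.0.16 (quasi-likelihood test, diet only) and, as an alternative, DESeq2 1.42.0. The gene length correction used offsets from a loess curve (span 0.5, degree 1), fitted in each mouse, that relates log2 exonic length to how far its log2 CPM lie from the gene means. It removes any trend on length, technical or biological. GC content came from annotated transcripts (94.0% of tested genes) and the median was used for the rest. Ratios used counts plus 0.5 and two-sided permutation tests with 100000 resamples, adjusted over 7 ratios. Approximate 95% intervals are 1.96 standard errors. Promoters and motifs came from RefSeq (GRCm38.p6). The alternatives were other normalizations, filters and call rules, covariates, the replicate number as a block, and 100 fits without 1 mouse of each group. Fits by library number, from the column names, and DESeq2 with the length correction were added after seeing the data. Steps were tested on simulated data.

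The regulators and lists were chosen with earlier results of these data known. All regulators are named, with the 2 called genes that rose most and the 2 that fell most in each list, and the 3 genes most like *Ppargc1a*. Of the listed symbols, *Perm1*, *Mterf1a*, *Mterf1b*, *Mief1* and *Mief2* did not match the table. Nothing in the labels says more than that mice are separate samples, and the p-values measure the spread between these samples. Counts limit precision most in *Tfb1m*, *Nrf1* and *Ppargc1b*.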

Additional observations from a re-analysis of the deposited data

How the results depend on the processing

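*Esrrg* was called lower in all 21 alternatives, with log2 fold changes from -1.23 to -0.50, and *Ppargc1b* and *Gabpa* in 20 of 21 each (from -0.50 to -0.24 and from -0.73 to -0.09). Of the 210 values of the 10 regulators under alternatives, 152 kept direction and side of the threshold, 10 lost the call, 23 gained one and 25 changed sign; the cause was not tested. DESeq2, RLE factors, both filters on low counts and the replicate block changed no call of a regulator. *Ppargc1a* turned to 0.037 and 0.038 with the gene length correction in edgeR and DESeq2, to 0.15 with length and GC content, to 0.0091 and 0.0078 with the length correction in a replicate block or with library number run as covariate, and to 0.073 with it within the lower run of library numbers. *Tfam* turned to 0.16 with the length correction in edgeR, in DESeq2 and in the replicate block, to 0.32 with length and GC content, to 0.010 with upper-quartile factors, 0.036 with library size only, 0.039 with the erythroid covariate, 0.17 with the length correction and library number run as covariate or within the lower run, and 0.15 with it within the higher run. Other signs that turned were of *Esrra* with length and GC content (-0.0062), of *Tfb2m* there (0.017), of *Tfb1m* with upper-quartile factors (0.0044) and library size only (0.031), and of *Polg* with the library size covariate (-0.0072) and within the higher run (-0.030).

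The number of regulators called higher, 1 without correction, was 4 with the length correction in edgeR, DESeq2, the replicate block or the library number run covariate (where 55.0%, 54.5%, 51.4% and 54.7% of all genes were called), 3 with library size only (69.4%), 2 with length and GC content (47.1%), 2 with library number run as covariate (67.8%), 2 within the lower run (58.9%; 3 with the length correction, 42.9%) and 2 within the higher run with the length correction (29.4%). The number called lower, 5, was 2 with length and GC content, 3 within the lower run, 3 within the higher run with the length correction, and 3 at an adjusted p below 0.01. Leaving out 1 mouse of each group gave 1 to 2 higher and 4 to 5 lower. The share of all tested genes called is not given for the 0.01 threshold or for these fits, so those counts have no background beside them. In 6 of these 100 fits, each without control mouse 5, *Nrf1* was called higher (up to 0.14). In these fits *Tfam* ran from -0.050 to 0.015, *Tfb1m* from -0.061 to 0.013 and *Polg* from -0.0029 to 0.047. With the length correction, *Ppargc1b* lost its call in 2 of the 100 fits, both without control mouse 7.

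Among the ratios with the length correction, *Ppargc1a* to *Ppargc1b* turned to 0.24 (two-sided permutation test, adjusted p = 0.0661). *Tfb1m* to *Tfb2m* turned to -0.064 and *Polg* to *Polg2* to 0.19, and *Tfam* to *Polg*, at -0.12, passed (adjusted p = 0.0434). Mice were left out only for the ratios without correction. Without 1 mouse of each group, *Ppargc1a* to *Ppargc1b* then ran from -0.11 to 0.067 and *Tfam* to *Polg* from -0.072 to 0.0034. The ratios of *Esrra* to *Esrrg*, *Nrf1* to *Gabpa* and *Gabpa* to *Gabpb1* passed in each alternative that was tested. These were the length correction, counts plus 2 in place of 0.5, and the replicate block. No ratio was computed with length and GC content, where *Esrra* and *Gabpa* lost their calls. Replicate numbers do not pair the samples (correlations of same-numbered deviations lay on both sides of 0). With the replicate block, the ratio of *Tfb1m* to *Tfb2m*, 0.13, passed (exact permutation test within pairs, adjusted p = 0.041), and no other ratio changed its call. With the length correction the lists had 5 partner receptors called higher, 7 replication genes higher, 5 targets higher and 8 lower, 15 import genes higher and 5 lower, and 3 fusion and fission genes lower. At 124 to 192 read pairs per heart, depth limits *Tfb1m* most.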

Other observations

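Among the genes listed around PGC-1, the subunits of AMPK, the energy-sensing kinase that acts on PGC-1α, can be read as a family. This grouping was chosen after the values were seen. The catalytic subunit genes *Prkaa1* and *Prkaa2* were lower in IDA, with log2 fold changes of -0.65 and -0.69, and so was the regulatory subunit gene *Prkab2* (-0.53). *Prkab1* (0.18) and *Prkag1* (0.21) were higher, and *Prkag2* (-0.01, adjusted p = 0.84) did not pass the test. With the gene length correction *Prkaa1* (-0.39), *Prkaa2* (-0.17) and *Prkab2* (-0.32) remained called lower, and the others were not called. With length and GC content *Prkaa1* (-0.14) and *Prkab2* (-0.22) were still called lower, *Prkag2* was called higher (0.16), and *Prkaa2* was not called (0.03, adjusted p = 0.54).

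Of the enzymes that add or remove acetyl groups in this list, also grouped after seeing the values, *Crebbp* (-1.28), *Ep300* (-1.002), *Kat2b* (-0.60) and the deacetylase gene *Sirt1* (-0.68) were lower and *Kat2a* (0.23) was higher. The 5 kept their direction and call with the length correction, at -0.79, -0.45, -0.34, -0.51 and 0.29, and with length and GC content all but *Kat2a* (0.08, adjusted p = 0.19) were called. *Foxo3*, a stress-responsive transcription factor, was lower (-1.14, and -1.11 with the correction), whereas its relative *Foxo1* was lower (-0.37) without it and was not called after it (-0.03, adjusted p = 0.62).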
